A study of Mus musculus with 33 samples.

Results

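Among 21 single cardiomyocytes of embryonic day 14.5 (E14.5), the 7 cells with the most immediate early gene RNA were set against the 7 cells with the least, so that 14 of the 33 sequenced cells are described. Each cell was ranked by the summed CPM (a gene's counts scaled to the cell's total, as counts per 1 M) of Fos, Fosb, Jun, Junb, Egr1, Atf3 and Ier2. The results are the levels of genes that did not enter this sum. The 7 remaining E14.5 cells, called middle cells here, lie between both sets. The cells were chosen by measured values of the same libraries. Each library was 1 cell, and no label names an animal, so p-values and standard errors were not computed. Counts of genes past 2-fold describe these cells and are not counts of genes shown to change.

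All cells were ventricular, came from mice carrying the FUCCI reporter mAG-hGem and were sorted by its fluorescence. This reporter joins the green protein Azami Green to part of human geminin and builds up in S, G2 and M phase. E14.5 gave 10 reporter positive and 11 reporter negative cells, and postnatal day 19 (P19) gave 8 and 4. The hearts were dissociated with enzymes before sorting, cells were kept when a PCR found Tnnt2 and not Pdgfrb, and RNA was amplified as antisense RNA. No genotype other than the reporter and no drug treatment is labelled for any group. The sources used here do not give the promoter of the reporter, the strain or the number of animals.

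Immediate early genes are transcribed within minutes of a growth factor, stretch, calcium or stress signal, without new protein synthesis. ERK, JNK and p38 kinases act on factors such as SRF, its ternary complex partners and CREB, which are already bound at these genes. Fos and Jun proteins pair to form the factor AP-1, EGR proteins are zinc finger activators, and Atf3 and Ier2 join the same early wave. A following wave includes phosphatases and RNA-binding proteins that end the response. Enzymatic dissociation of tissue is itself known to switch on these genes. All cells here were dissociated, and the part of that step in the results was not tested.

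The sum of the 7 ranking genes ran from 49.5 CPM in E14.5 negative cell 10 to 26903 CPM in E14.5 positive cell 1. The high cells lay at 26903, 21854, 15953, 15220, 10111, 9319 and 7685 CPM, and the low cells at 3184, 1872, 1647, 1417, 583.9, 193 and 49.5 CPM. The sum has no wide gap at the upper limit, where the lowest high cell had 7685 CPM and the highest middle cell 7605 CPM. At the lower limit the values were 3184 CPM inside and 3886 CPM outside. Egr1 made up 48.4% and Fos 34.6% of the sum over the 21 cells, so the rank follows mainly those genes. In the summed counts, Fos had 6192 CPM in high and 210 CPM in low cells, and Egr1 had 6319 and 449 CPM. Jun had 742 and 23.3 CPM, and Atf3, a repressor and activator of the ATF/CREB family, had 1254 and 174 CPM. Ier2 had 429.5 and 60.4 CPM, Fosb 99.5 and 3.2 CPM, and Junb 48.5 and 8.73 CPM. These 7 genes chose the cells, and their levels are a description only.

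**Figure D1:**
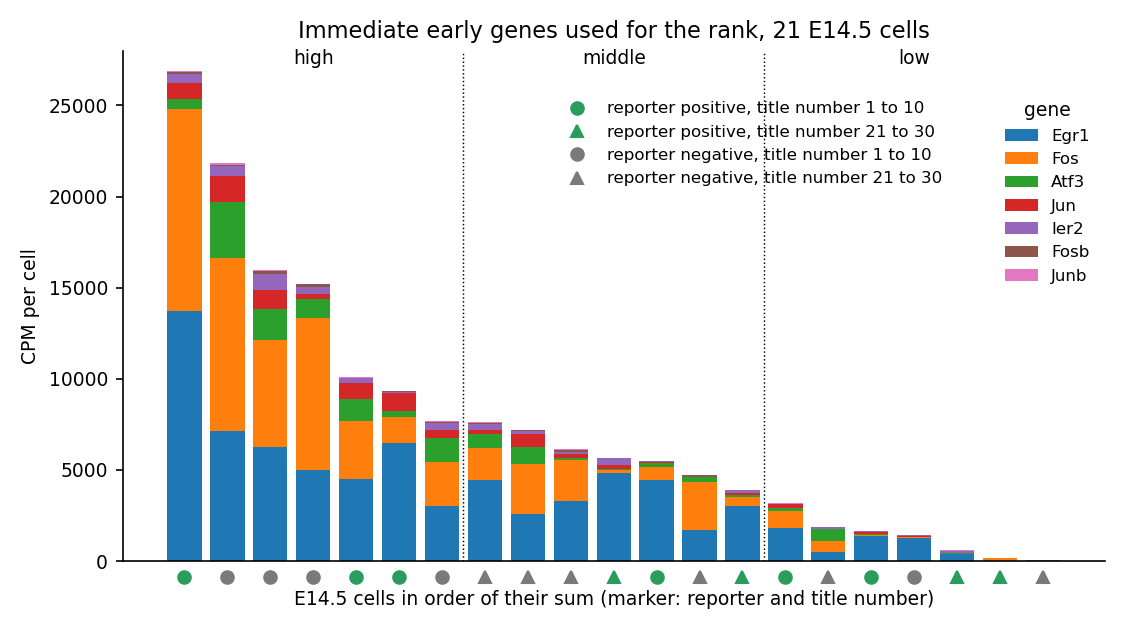
Stacked CPM of the 7 ranking genes in each of the 21 E14.5 cells, ordered by their sum, with markers for reporter class and title number. The sum falls without a clear step at either limit, from 26903 CPM to 49.5 CPM, and Egr1 and Fos fill most of each bar but the last, where they have 1.29 and 0.745 CPM.

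The high set held 3 reporter positive and 4 reporter negative cells, the middle set 3 and 4, and the low set 4 and 3. The sample titles carry running numbers, and these were spread less evenly. Numbers 1 to 10 were held by 7 of 7 high, 1 of 7 middle and 3 of 7 low cells. The ranking sum had a median of 9319 CPM over the 11 cells with numbers 1 to 10 and of 4314 CPM over the 10 cells with numbers 21 to 30. Total counts had medians of 13.9 M and 38.9 M in those cells. What the numbers stand for was not given in the sources used here, so medians of the main lists are also given within each number range. Over the high cells totals ran from 11.9 to 30.5 M counts, with a median of 15.6 M, and over the low cells from 7.8 to 55.0 M, with a median of 27.4 M. After every cell was thinned to 7.8 M counts, a median of 8055 genes had a read in high cells and 7954 in low cells.

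Both sets carried cardiomyocyte RNA. The label of cardiomyocyte was checked against 12 markers, of which 11 were counted and none differed 2-fold, with summed levels of 14775 to 34048 CPM in high and 13278 to 31167 CPM in low cells. Tnnt2, the cardiac troponin T gene used in the PCR check, had 964 to 8258 CPM in high and 501 to 6091 CPM in low cells. One high cell, E14.5 negative cell 5, also carried fibroblast RNA. Its fibroblast markers summed to 52097 CPM, and Postn, a matrix protein gene of fibroblasts and valves, had 45688 CPM in it against at most 4.69 CPM in any low cell. The median of that marker sum was 543 CPM in high and 199 CPM in low cells. Of the 14 fibroblast markers 9 were counted and 8 were at least 2-fold higher in the high sum, beside 21.1% of all genes counted. Most of the 9 passed the limit of 5 CPM in the summed counts only through E14.5 negative cell 5, so these counts describe that cell. Without this cell the ratio of Postn turned to -4.69 on the log2 scale. Dcn, another fibroblast matrix gene, had 929.6 CPM in this cell, 0 in the other high cells and 1 count in the summed low cells (log2 ratio 15.46, interval 12.99 to 20.77). Where leaving out this cell ended a 2-fold difference, the value without it is given as well.

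Endothelial, macrophage and erythroid markers were low in most cells of both sets. Mural and smooth muscle, atrial and epicardial markers had higher medians. Endothelial markers summed to 0.163 to 180 CPM in high and 0 to 7.67 CPM in low cells, where 1 of 14 was counted. Macrophage markers reached 25.5 CPM in high and 28.4 CPM in low cells, and erythroid markers 35.2 and 0.513 CPM. Mural and smooth muscle markers had medians of 516 and 461 CPM, with 1 of 3 counted genes higher. Epicardial markers had medians of 186 and 88.3 CPM, with 1 of 3 counted genes higher and 1 lower. Atrial markers had medians of 715 and 459 CPM, with 2 of 4 counted genes higher and 1 lower. These calls rested on few cells. Of the higher genes, Myl7 had a log2 ratio of 1.01, and -0.59 without E14.5 negative cell 4. Nppa had reads in 3 high cells and 1 low cell. Kcnj3, the lower gene, had 314 CPM in E14.5 negative cell 10, at most 0.195 CPM in the other low cells and 0 in the high cells. Of 4 counted sex-linked genes 3 were higher and 1 lower. The sum of the sex-linked list ran from 54.31 to 1723 CPM over cells with title numbers 1 to 10, which include all high cells. Over cells with title numbers 21 to 30 it ran from 2.259 to 1335 CPM. There it was above 37.52 CPM only in E14.5 negative cell 6 (1335 CPM) and E14.5 negative cell 8 (721.2 CPM). Title numbers and sex-linked RNA thus went together in most cells. The part of these markers in the results below was not tested.

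Immediate early genes that took no part in the rank were mostly higher in the high cells. Levels were compared as the log2 ratio of CPM of the summed counts, high over low, over the 8232 genes with at least 5 CPM in the sum of the 14 cells. A list of 75 further immediate early genes gave 52 that passed this limit. Of these 30 were at least 2-fold higher in high cells, against 21.1% of all genes counted, and 1 was at least 2-fold lower, against 21.3%. The remaining 21 lay within 2-fold, and the median log2 ratio of the 52 was 1.51, against -0.04 over all genes counted. The shares of all genes, 21.1% and 21.3%, belong beside the count of every other list and marker set. On the difference of mean log2(CPM + 1) over cells, 23.3% of all genes were at least 2-fold higher and 12.3% lower, and 34 of the 52 were higher. The summed level of the list ran from 5007 to 20142 CPM in high cells, with a median of 10129 CPM. In low cells it ran from 1439 to 7081 CPM, with a median of 5060 CPM. The sets thus overlapped, and no gene of the list separated every high from every low cell. Over the 21 cells the list sum had a Spearman correlation of 0.72 with the ranking sum. It was 0.77 over the 11 cells with title numbers 1 to 10 and 0.70 over the 10 with numbers 21 to 30. The points are cells of unnamed animals that differ in depth, and no p is given.

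**Figure D2:**
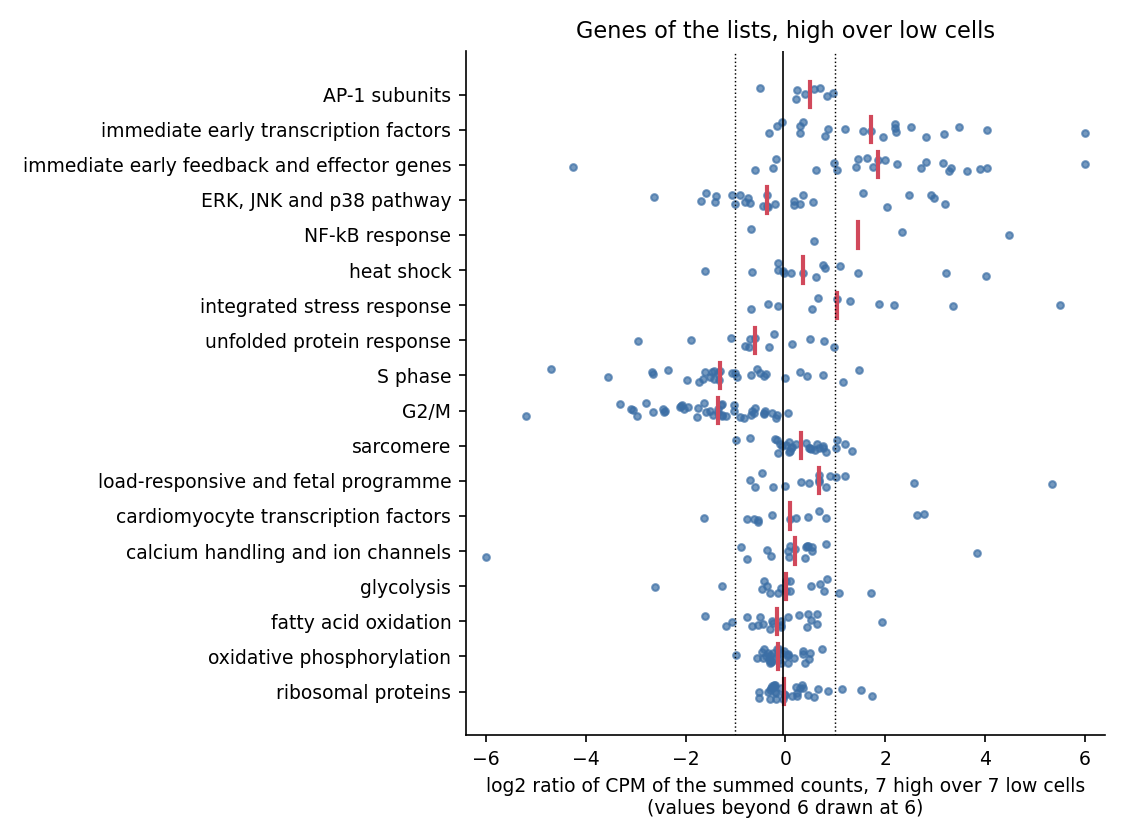
Log2 ratio of CPM of the summed counts, 7 high over 7 low cells, for each counted gene of the lists, with values beyond 6 drawn at 6 and red bars at the list medians. The feedback and effector genes and the immediate early transcription factors lie mostly to the right of 0, and the G2/M and S phase genes mostly to the left.

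Within the transcription factors of the early wave 13 of 21 counted genes were at least 2-fold higher and none was 2-fold lower, with a median log2 ratio of 1.72. Egr2, a zinc finger factor of the Egr1 family, had 0 to 281 CPM in high cells with a median of 189 CPM. In low cells it had at most 0.0731 CPM. Of the 7 high cells 6 had Egr2 reads, and 1 low cell did. The log2 ratio was 13.93 with a counting interval of 12.07 to 16.97, since the low sum held only 2 counts. Middle cells were mixed, with 88.96 CPM in E14.5 positive cell 8 and 0 in E14.5 negative cell 7. Nr4a1, an orphan nuclear receptor, had 12.03 to 187 CPM in high and 0.804 to 44.3 CPM in low cells (2.19). Ier5, an early response gene, had 50.9 to 312 CPM in high and 0 to 147 CPM in low cells (3.48). Csrnp1, a nuclear protein gene, had 4.66 to 29.8 CPM in high and 0 to 16.9 CPM in low cells (1.96). Klf2, a factor known from flow responses of endothelium, had a median of 123.5 CPM in high and 0.256 CPM in low cells, but the highest low cell reached 155 CPM. In these 5 genes the sets differed in their medians, and in all 5 at least 1 low cell overlapped the high cells.

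Several other transcription factor ratios rested on 1 cell. Id2 and Id3, inhibitors of basic helix-loop-helix factors, had log2 ratios of 1.20 and 3.17, and without E14.5 negative cell 5 these were -0.35 and -1.59. Id1 and Klf6 had 1.56 and 1.72, and 0.74 and 0.59 without that cell. Cebpd, a CCAAT-binding factor, had 2.22, and -0.09 without E14.5 negative cell 3, in which it reached 1427 CPM. Nr4a2 had 2.20, and 0.93 without E14.5 positive cell 1. Without E14.5 negative cell 5 the median of the transcription factors was 0.74. Factors that lay within 2-fold included Srf, the serum response factor (0.29), Klf4 (0.86), Bhlhe40 (0.29), Hes1 (-0.17), Klf10 (-0.32) and Crem (-0.06).

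Genes that act against the response, or carry it out, were higher in larger number. Of the 23 counted feedback and effector genes 17 were at least 2-fold higher and 1 was lower, with a median log2 ratio of 1.85. Their sum had a median of 6939 CPM in high and 2033 CPM in low cells. Btg2, an antiproliferative gene that promotes mRNA deadenylation, was the most abundant of those named here, with 1336, 2765, 2865, 1955, 2027, 184 and 411 CPM in the high cells in order of their rank. In the low cells it had 610, 78.2, 535, 89.8, 10.5, 0.0731 and 4.18 CPM (log2 ratio 4.04). Btg2 was thus above 1000 CPM in 5 of 7 high cells and in no low cell, and the 2 lowest high cells fell inside the range of the low cells. Zfp36, which encodes tristetraprolin, a protein that destabilises AU-rich mRNAs, had 30.9 to 1562 CPM in high and 0.0182 to 362.5 CPM in low cells (3.64). Dusp1, a phosphatase that switches off p38, JNK and ERK, had 48.0 to 1039 CPM in high and 0 to 307 CPM in low cells (3.32). Plk2, a polo-like kinase of the early wave, had 30.7 to 186 CPM in high and 0 to 101 CPM in low cells (3.91). E14.5 positive cell 3 was the lowest high cell in Btg2, Zfp36 and Dusp1, and it also had the least Fos of the high cells, 1409 CPM.

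Promoter sequences of these genes are shown because they hold motifs of the factors named in the background. RefSeq promoters on GRCm38.p6, 250 bases upstream of each gene start, were searched on both strands for the cAMP response element (CRE, letters TGACGTCA), the AP-1 site (TGACTCA or TGAGTCA) and the SRF-binding CArG box. Among all 27025 promoters 1.62% held a CRE, 4.43% an AP-1 site and 1.4% a CArG box. Of the 30 immediate early genes at least 2-fold higher, 26 had a promoter, of which 3 held a CRE, 1 a CArG box and none an AP-1 site. Of the 22 others counted 16 had a promoter, and 1, Srf, held a CArG box. The CRE lay 166 to 159 bases upstream in Btg2, 143 to 136 in Dusp1 and 62 to 55 in Plk2, and the CArG box of Zfp36 lay 58 to 49 bases upstream. A match is a description of the letters and not of a bound site. Capitals mark the motif, read 5′ to 3′ on the gene's strand. Bases inside GENCODE exons are left out, which shortens Dusp1 to 203 bases. The whole Zfp36 window lies in a GENCODE exon, so only 30 bases around its motif are shown.
Btg2 (chr1:134079156-134079405, minus strand): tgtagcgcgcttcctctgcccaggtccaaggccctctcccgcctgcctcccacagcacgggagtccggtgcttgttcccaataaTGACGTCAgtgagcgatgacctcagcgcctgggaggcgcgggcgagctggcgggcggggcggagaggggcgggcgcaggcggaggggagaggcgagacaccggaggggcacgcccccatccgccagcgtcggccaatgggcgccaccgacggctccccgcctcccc
Dusp1 (chr17:26508520-26508722, minus strand): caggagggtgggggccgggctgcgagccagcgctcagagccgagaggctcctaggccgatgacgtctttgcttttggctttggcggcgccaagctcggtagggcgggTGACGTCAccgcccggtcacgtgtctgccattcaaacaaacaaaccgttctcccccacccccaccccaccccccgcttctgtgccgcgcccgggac
Plk2 (chr13:110394794-110395043, plus strand): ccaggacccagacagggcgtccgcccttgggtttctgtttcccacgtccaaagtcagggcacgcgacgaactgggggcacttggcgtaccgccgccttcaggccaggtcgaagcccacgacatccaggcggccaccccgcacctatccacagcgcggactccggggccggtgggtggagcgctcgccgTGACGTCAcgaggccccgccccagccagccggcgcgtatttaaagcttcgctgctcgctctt
Zfp36 (chr7:28379267-28379296, minus strand): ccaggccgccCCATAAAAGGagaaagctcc
These 3 CRE genes and Zfp36 also stand among the 10 genes whose levels were most like the ranking sum, described below. For the ranking genes, 5 of 7 had a promoter, and none of the 3 motifs was found in those windows. Egr1 and Ier2 were without one. The search took only exact letters within 250 bases, so near matches and sites further upstream are missed. It does not show that the ranking genes lack these motifs.

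Most of the other feedback genes had ratios above 0 as well. Dusp6 and Dusp10, further MAP kinase phosphatases, had log2 ratios of 1.64 and 1.75, with 90.2 to 423 CPM in high and 0 to 198 CPM in low cells for Dusp6. Spry2, a Sprouty inhibitor of receptor tyrosine kinase signalling, had 1.45. Its relative Spry1 had 275 CPM in E14.5 negative cell 3, a median of 1.77 CPM over high cells and at most 0.0487 CPM in low cells. Its 2 low counts leave the ratio of 11.52 with an interval of 9.67 to 14.57. Socs3, a feedback inhibitor of cytokine receptors, had 3.16, Errfi1, an inhibitor of EGF receptors, 3.27, Rhob, a small GTPase, 2.71 and Gadd45g, a growth arrest gene, 2.23. Btg1 had 2.81 and Zfp36l1 1.85. Cyr61 and Ctgf, matricellular proteins known as YAP and SRF targets, had 1.99 and 1.04. Cyr61 was 0.71 without E14.5 negative cell 5, and Ctgf was under 2-fold without any 1 of 6 cells. Sgk1 had 1.41, and was 0.30 without E14.5 negative cell 4 and 0.92 without E14.5 negative cell 10. Zfp36l2 was the gene at least 2-fold lower (-4.26), and it was -0.25 without E14.5 positive cell 7, which had 131.5 CPM. Mcl1 (-0.61), Tiparp (-0.18), Gadd45a (-0.24) and Gadd45b (0.62) lay within 2-fold.

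AP-1 subunits outside the ranking genes differed less in the full sets. Of 8 counted members none was at least 2-fold higher or lower, and the median log2 ratio was 0.49. Within title numbers 1 to 10 and 21 to 30 the median was 1.07 and 0.93, where all genes counted had medians of 0.33 and 0.06. Jund, the AP-1 partner that is expressed without stimulation, had 9.55 to 60.5 CPM in high and 0.0286 to 74.5 CPM in low cells (0.23, and 1.88 and -0.03 within the 2 number ranges). Fosl2, a Fos relative, had 2.45 to 294 CPM in high and 0 to 278 CPM in low cells (0.70, and 1.17 and 2.06 within the number ranges). Atf4, the factor of the integrated stress response, had 343 to 1667 CPM in high and 38.7 to 933 CPM in low cells (0.84). Batf had 0.96, Maff 0.39, Mafg 0.58, Atf2 0.22 (-0.12 without E14.5 negative cell 5) and Atf7 -0.50. The summed level of the list had a correlation of 0.27 with the ranking sum over 21 cells.

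**Figure D3:**
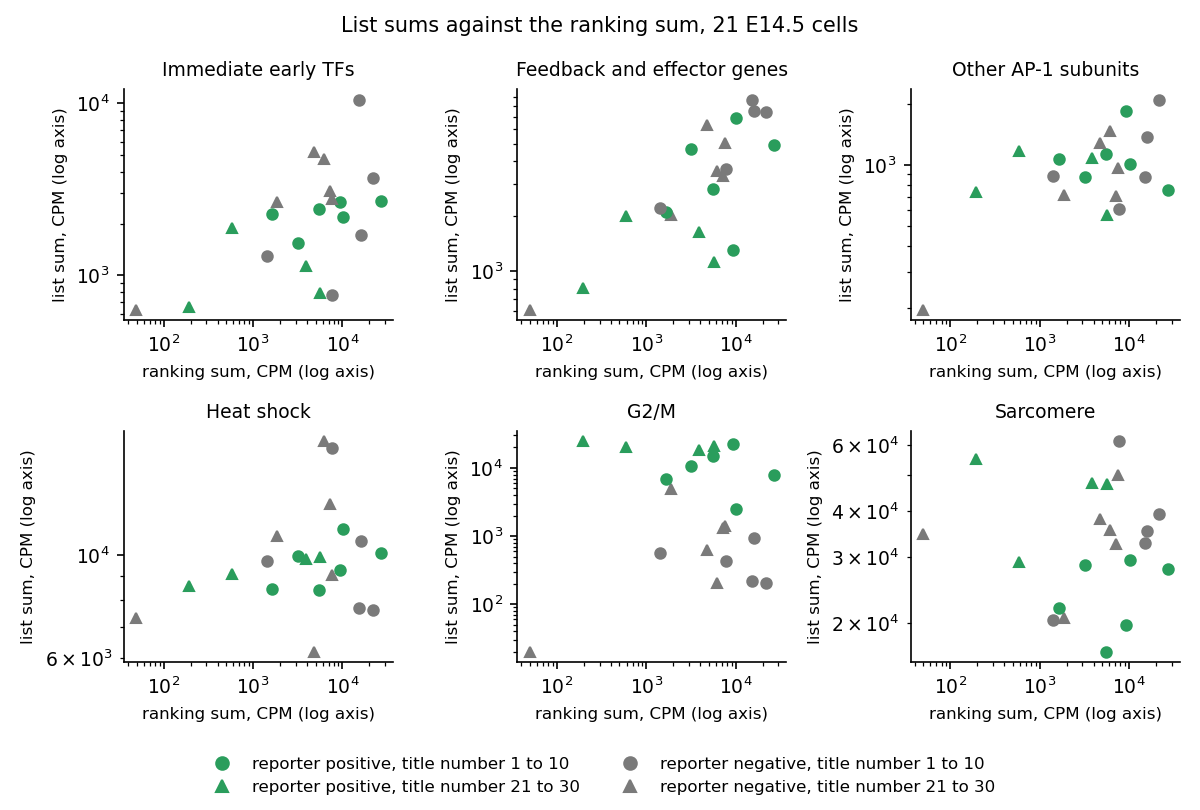
Summed CPM of gene lists in each of the 21 E14.5 cells against the sum of the 7 ranking genes, both on log axes, with markers for reporter class and title number. The sum of feedback and effector genes runs upward with the ranking sum (Spearman 0.72), that of the transcription factors less so (0.52), and G2/M and AP-1 subunits follow it weakly (-0.23 and 0.27).

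The 30 immediate early genes were read again with either the title numbers or the reporter held fixed, never both. These genes were chosen by their ratio in the full sets, and the smaller sets reuse cells of the full sets, so the counts are a description. The other 1709 genes at least 2-fold higher were chosen in the same way and are given beside them. Among cells with title numbers 1 to 10, the 3 highest were set against the 3 lowest, and 21 of the 30 (70%) were at least 2-fold higher, with 53.6% of the 1709. The 3 highest and 3 lowest cells with numbers 21 to 30 gave 25 of 30 (83.3%) and 50% of the 1709. Those 3 highest cells were not among the 7 high cells, while the 3 lowest were among the 7 low cells. All 3 highest were reporter negative, and the 3 lowest were E14.5 positive cells 10 and 7 and E14.5 negative cell 10. Both ranges together gave 18 of 30 (60%) and 26% of the 1709. The medians of the whole immediate early list were 1.71 and 1.83 in these ranges. In both reporter classes the 3 highest cells had title numbers 1 to 10, and the 3 lowest had numbers from both ranges. Within reporter positive cells 22 and within reporter negative cells 29 of 30 were at least 2-fold higher, beside 61.4% and 85.2% of the 1709, and the list medians were 1.05 and 2.43. Without E14.5 negative cell 5 the number was 25, beside 75.7% of the 1709, and the list median was 1.12. In each of these 5 settings, 5 other scalings of the counts and 2 other ranks of the cells 13 of 30 genes (43.3%) were at least 2-fold higher, beside 12.3% of the 1709: Egr2, Nr4a1, Klf2, Csrnp1, Ier5, Dusp1, Dusp6, Dusp10, Zfp36, Btg2, Plk2, Spry1 and Spry2. Rhob was -0.07 when cells were ranked by the mean log level of the ranking genes. In the cells with numbers 1 to 10, Myc, Id2, Id3, Zfp36l1, Cyr61 and Sgk1 were lower in the 3 highest cells. Errfi1 was lower in those with numbers 21 to 30 (-3.84).

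**Figure D4:**
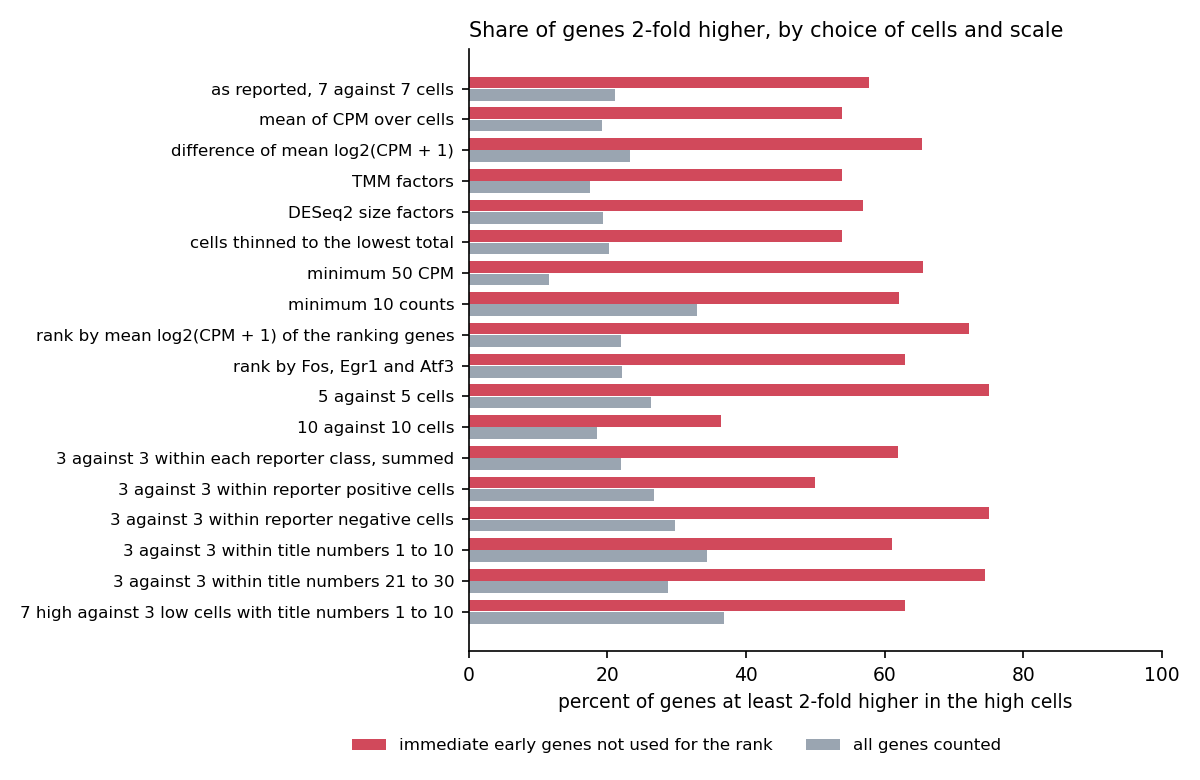
Share of genes at least 2-fold higher in high cells under each choice of cells and scale, for the immediate early genes not used for the rank and for all genes counted. The immediate early share lies above the share of all genes in each setting drawn, by a margin that shrinks when 10 cells are taken on each side.

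The genes most like the ranking sum over the 21 cells were taken by Spearman correlation among genes with at least 20 CPM. Of the 10 genes taken, those reported are Pnrc1 (0.86), Btg2 (0.84), Zfp36 (0.77), Pfkm (0.76), Dusp1 (0.74), Plk2 (0.70), Usp32 (0.69), Gem (0.69) and Vps26b (0.69). Of these, Pnrc1, Usp32, Gem and Vps26b are in none of the gene lists used here. Pnrc1, a nuclear receptor coactivator gene, had 416.5, 661, 409.9, 404, 409.6, 382 and 183 CPM in the high cells in order of rank. Its low cells had 159, 25.8, 107, 51.0, 9.12, 62.5 and 47.8 CPM, so every high cell lay above every low cell (log2 ratio 2.99). Pfkm, the muscle phosphofructokinase of glycolysis, had 44.3 to 124 CPM in high and 10.7 to 36.7 CPM in low cells, again with no overlap (1.72). Gem, a small GTPase that inhibits L-type calcium channels, had 18.9 to 2656 CPM in high and 0 to 117 CPM in low cells (4.37). The highest Gem level lay in E14.5 negative cell 5, and the ratio was 3.08 without that cell. Usp32, a ubiquitin protease, had 2.04, and Vps26b, a retromer subunit, 2.99.

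Complete separation of the sets was rare. Every high cell lay above every low cell in 3 of 8232 genes (0.0364%): Nfatc2, Pfkm and Pnrc1. No gene lay below in every high cell (0%). Nfatc2, a calcium- and calcineurin-dependent factor, had 1.41 to 63.0 CPM in high cells and at most 0.769 CPM in low cells, where 2 of 7 cells had reads at all. Its highest value lay in E14.5 negative cell 5, and its log2 ratio was 8.50, and 7.17 without that cell. Nfatc2 (chr2:168476410-168601657), Pfkm (chr15:98092589-98132451) and Pnrc1 (chr4:33245423-33290163) are given on GRCm38 from GENCODE vM21. They were named because of this separation, after their values were seen.

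**Figure D5:**
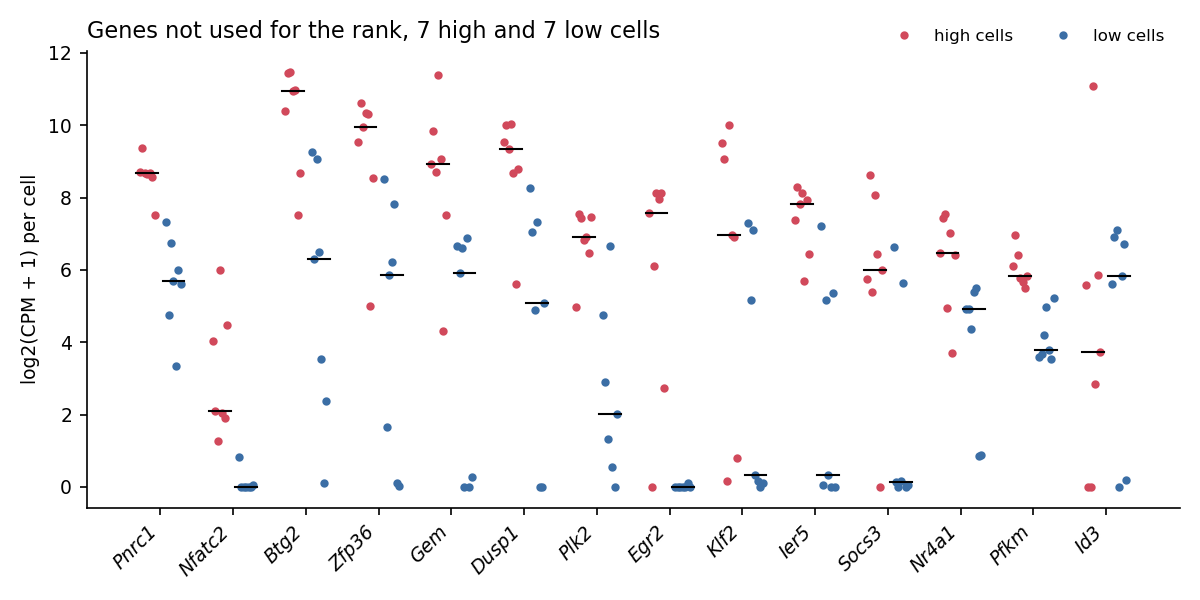
Log2(CPM + 1) of genes not used for the rank in each of the 7 high and 7 low cells, 1 point per cell, with bars at the medians. The points of Pnrc1, Pfkm and Nfatc2 do not overlap between the sets, and those of the other genes do.

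The genes of largest ratio were mostly off, or nearly off, in low cells and high in a few high cells. They were ordered by the least extreme ratio obtained on dropping any 1 of the 14 cells. Irs2, the insulin receptor substrate, had 0 to 159 CPM in high cells with a median of 8.93 CPM and no count in low cells, at least 2468-fold higher from a floor of 3 counts over the set. Klhl15, a cullin adaptor, was at least 1373-fold higher on the same floor, but its median over high cells was 0.169 CPM. Nrip1, a nuclear receptor corepressor, had 0 to 117 CPM in high and at most 2.54 CPM in low cells (8.21). Maml3, a Notch coactivator, had a median of 55.5 CPM in high and 0.0182 CPM in low cells (7.63). Myo1d, an unconventional myosin, had 0.394 to 94.1 CPM in high and at most 0.538 CPM in low cells (7.51). Cachd1 (11.62), Tshz2 (11.22, interval 9.36 to 14.26 from 2 low counts) and Armc5 (10.64) completed the list with Egr2 and Nfatc2. Of these, Maml3 was -0.81 within title numbers 21 to 30, and Myo1d was -0.72 when cells were ranked by the mean log level of the ranking genes.

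In the other direction the 10 largest ratios held genes of varied function. Gulp1, an adaptor for engulfment of dying cells, had 0 to 10.6 CPM in high cells and a median of 141 CPM in low cells (-5.39). Tpx2, a spindle assembly factor, had a median of 0.0657 CPM in high and 23.5 CPM in low cells (-3.32). Melk, a kinase of dividing cells, had medians of 0.0657 and 188 CPM (-3.27). Ap4e1, a subunit of the AP-4 adaptor, had -6.33, and Cxxc1, a protein that binds unmethylated CpG, -3.26. Enox2 (-5.33), Anks1b (-4.25) and Ccdc91 (-3.15) were further genes. Ttc9c had medians of 4.39 CPM in high and 21.2 CPM in low cells, and Kctd16 of 0.100 and 81.5 CPM. Within title numbers 1 to 10, Tpx2 was 0.96 and Cxxc1 0.16, and within numbers 21 to 30 Kctd16 was 0.67.

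Kinase pathway genes upstream of the immediate early genes were not shifted as a list. Of 27 counted genes of the ERK, JNK and p38 pathway 6 were higher and 6 lower, near the shares of all genes, and the median log2 ratio was -0.36. Within title numbers 1 to 10 and 21 to 30 that median was 0.67 and -0.08. Erbb4, the neuregulin receptor, had 285.5 to 1409 CPM in high and 146 to 2133 CPM in low cells (-0.71). Map2k1, which encodes MEK1, had -0.45. Rps6ka3, which encodes the kinase RSK2, had 2.27 to 214 CPM in high and 0.0363 to 16.8 CPM in low cells (3.19). Elk3, a ternary complex factor, had 2.98, which was -0.18 without E14.5 positive cell 3. RNA levels of these genes say nothing of kinase activity, which was not measured.

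Stress pathways differed from one another. NF-kB response genes were mostly too low to count, and of 4 counted 2 were higher. Nfkbia, the inhibitor IκBα, had 0 to 74.5 CPM in high and 0.0487 to 35.3 CPM in low cells (2.34). Nfkbiz, a nuclear IκB, had a median of 13.5 CPM in high and 0.143 CPM in low cells (4.48, and 2.69 without E14.5 negative cell 5). Nfkb1 had 0.57. Of 15 heat shock genes 4 were higher (26.7%), near the 21.1% of all genes, and 1 lower, with a median of 0.36. Hspa1a, an inducible HSP70, reached 1525 CPM in E14.5 negative cell 4, with a median of 82.9 CPM in high and 0.0572 CPM in low cells (4.02). Its near-identical copy Hspa1b makes that level uncertain. Dnajb1, an HSP40 co-chaperone, had medians of 261 and 39.0 CPM (3.22). Hsp90aa1 (-0.05) and Hsp90ab1 (0.11) were close to equal.

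Beside 21.1% and 21.3% of all genes counted, 6 of 11 integrated stress response genes were higher and none lower. Their median was 1.04, and it fell to 0.37 when E14.5 negative cell 5 was left out. Ppp1r15a, which encodes the eIF2α phosphatase subunit GADD34, had 1.55 to 36.3 CPM in high and 0 to 5.89 CPM in low cells (3.35). Ddit4, an inhibitor of mTORC1, had 5.51, which was 1.42 without E14.5 negative cell 5. Psat1 had -0.69 and Vldlr 0.66. Of 13 unfolded protein response genes 0 were higher and 3 lower, with a median of -0.60, which was 0.02 and 0.55 within title numbers 1 to 10 and 21 to 30. The endoplasmic reticulum chaperones Hspa5 and Hsp90b1 had 0.50 and -0.22. Calr had -1.89, but 0.31 and 0.34 within the title numbers 1 to 10 and 21 to 30, and Edem1 had -2.96, which was -0.71 without E14.5 negative cell 8. Of 10 NRF2 and metal response genes 1 was higher and 1 lower (median 0.09), of 14 hypoxia genes 1 and 2 (-0.31), and of 9 p53 response genes 4 and 1 (0.54, but -0.39 within title numbers 1 to 10).

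Cell cycle genes were lower in the high cells in the sums. Beside 21.1% and 21.3% of all genes counted, none of 43 G2/M genes was at least 2-fold higher and 30 were 2-fold lower or more. Their median log2 ratio was -1.34, and 1 of the 43 was above 0. Of 30 S phase genes 2 were higher and 18 lower, with a median of -1.31. Without E14.5 negative cell 8 the S phase median was -0.28. The G2/M median was -2.55 without E14.5 positive cell 3 and -0.88 without E14.5 positive cell 7. The reporter marks S, G2 and M phase, and the sets held 3 and 4 reporter positive cells. The summed G2/M level ran from 204 to 22404 CPM in high cells with a median of 933 CPM, and from 20.1 to 24574 CPM in low cells with a median of 6778 CPM. The ranges thus overlapped almost wholly, and a single high cell, E14.5 positive cell 3, held 22404 CPM. Cdk1, the mitotic kinase, had medians of 71.6 CPM in high and 734 CPM in low cells (-1.03), and fell under 2-fold without any 1 of 7 cells. Smc4, a condensin subunit, had -0.68, and Psrc1, a spindle protein, -5.20, with 3 of 7 cells with reads in each set. Psrc1 was -1.91 without E14.5 positive cell 7, 0.30 within title numbers 1 to 10 and 3.95 within reporter negative cells. Pcna and Mcm4, of the replication fork, had -1.43 and -2.67, and -0.38 and -0.76 without E14.5 negative cell 8. Gins3 and Gins1, of the replicative helicase, had -4.69 and -3.55.

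The cell cycle medians were unlike in the reporter classes. Within reporter positive cells the G2/M median was -1.22 and the S phase median 0.16, and within reporter negative cells they were -5.76 and -4.94. The 3 highest reporter negative cells had G2/M sums of 204, 933 and 218 CPM and S phase sums of 482, 1036 and 2110 CPM. The 3 lowest, E14.5 negative cells 8, 1 and 10, had G2/M sums of 4859, 573 and 20.1 CPM. Their S phase sums were 20392, 1771 and 2382 CPM, so E14.5 negative cell 8 held most of both. Within title numbers 1 to 10 the G2/M and S phase medians were -0.82 and -1.25, and within numbers 21 to 30 they were -9.80 and -0.20. In that last range the 3 highest cells were all reporter negative, with G2/M sums of 1392, 1296 and 204 CPM. The 3 lowest were E14.5 positive cells 10 and 7 and E14.5 negative cell 10, with 20357, 24574 and 20.1 CPM. The part of the reporter in the -9.80 was not tested. Over the 21 cells the G2/M sum had a correlation of -0.23 with the ranking sum, and the S phase sum -0.22. Whether the difference between the classes is larger than the spread between cells was not tested.

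Contractile genes had ratios near 0 in the full sets. Of 28 sarcomere genes 4 were higher and none lower, with a median log2 ratio of 0.32, which was 0.83 and 0.28 within title numbers 1 to 10 and 21 to 30. Actc1, cardiac actin, had 3906 to 13291 CPM in high and 4486 to 15817 CPM in low cells (0.14), and Myl2, the ventricular light chain, had -0.06. Tcap, a Z-disc protein, had 1.33, which was 0.82 without E14.5 negative cell 2, and Xirp1 had 1.20, which fell under 2-fold without any 1 of 4 cells. Of 16 load-responsive and fetal genes 4 were higher (25%), near the 21.1% of all genes, and none lower, with a median of 0.67. Nppb, the natriuretic peptide BNP and a known target of stretch signals, had a median of 20.4 CPM in high and 0.908 CPM in low cells (5.34), but -5.37 within title numbers 21 to 30. Nppa, which encodes ANP, had 2.58, with reads in 3 high cells and 1 low cell, and -3.58 within numbers 21 to 30. Ankrd1, a stretch-responsive nuclear and sarcomeric protein, had 396 to 12277 CPM in high and 415 to 23922 CPM in low cells (0.67, but -0.31 without E14.5 negative cell 5 and -3.14 within title numbers 1 to 10). Vim, an intermediate filament gene, had 0.67, and -0.04 without that cell. Cardiomyocyte transcription factors gave 2 of 13 higher and 1 lower (median 0.10). Both higher ratios rested on 1 cell. Tbx20 had 2.63, and 0.22 without E14.5 negative cell 5, and Prox1 had 2.77, and 0.30 without E14.5 positive cell 1. Calcium handling and ion channel genes gave 1 of 17 higher and 1 lower (0.20).

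Energy metabolism and protein synthesis lists had medians near 0 in the full sets. Within title numbers 1 to 10, where the median of all genes was 0.33, they were 0.35 for oxidative phosphorylation, 0.71 for glycolysis, 0.61 for fatty acid oxidation and 0.66 for ribosomal proteins. Within numbers 21 to 30 they were -0.01, 0.33, 0.08 and 0.16. None of 32 oxidative phosphorylation genes was 2-fold higher or lower, with a median of -0.15. Of 18 glycolysis genes 2 were higher and 2 lower (median 0.01). Pfkm, described above, was 1 of the 2, and Eno3, muscle enolase, had 0.83. Of 22 fatty acid oxidation genes 1 was higher and 3 lower (median -0.17). Cd36, the fatty acid transporter, had medians of 277 CPM in high and 59.5 CPM in low cells (1.93). Decr1, a mitochondrial dienoyl-CoA reductase, had medians of 186 and 569 CPM (-1.60), with 4 of 7 low cells above every high cell. Of 31 ribosomal protein genes 3 were higher and none lower (median -0.02). The summed ribosomal protein level had a correlation of -0.82 with the ranking sum over the 11 cells with title numbers 1 to 10. It was -0.10 over the 10 with numbers 21 to 30 and -0.08 over all 21. The sum and the median thus differ in sign in the first range. There 1 gene, Rpl4, made up most of the sum in the low cells. It had 33158, 30415 and 35621 CPM of 38675, 38687 and 40950 CPM in E14.5 positive cells 6 and 4 and E14.5 negative cell 1. In the high cells Rpl4 had 4546 to 16131 CPM. Genes of RNA polymerase II pausing and mRNA decay gave 2 of 14 higher and 3 lower (0.01).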

How the data were processed

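Raw counts of reads per gene were deposited by the authors as 1 table of 20728 genes in 33 cells. Bases were called with CASAVA 1.8.2, STAR 2.4.0j served for alignment (build mm10) and HTSeq 0.6.1p1 for counting, as the submitters' processing notes list. The sources used here do not give the strand setting or any duplicate removal. From the deposited counts, CPM was computed on each cell's total, which ran from 7.8 to 60.2 M over the 21 E14.5 cells.

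Cells of a set were summed (119.8 M counts for high, 191.2 M for low cells), and the ratio of CPM of the sums was taken on the log2 scale. Intervals (95%) are exact conditional binomial intervals. They cover only counting error and leave out the spread between cells. Copies of a molecule made by amplification are not independent, so the intervals are too narrow even for counting error. With 0 counts in a set the fold is a bound from 3 counts over the set, and the list medians use that bound. A gene counted needed at least 5 CPM in the sum of the 14 cells. Spearman correlations over cells are given without p-values.

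Genes were named by a rule: the 7 ranking genes, the 10 largest ratios in each direction by the smallest value on leaving out 1 cell (at least 20 CPM and reads in 6 of 7 cells of the higher set, no predicted, clone, pseudogene or mitochondrial symbol), up to 4 members of each list described (the 2 most abundant and the 2 of largest ratio), and the 10 genes most like the ranking sum. A gene taken by the last part is not reported here. Other members of the immediate early lists, genes lost on leaving out a cell and marker genes were named after their values were seen. The members and lists were chosen with earlier results of these data known. The lists held 588 genes in 31 lists, of which 581 were found, 7 by an older symbol.

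The alternatives comprised TMM factors of edgeR 4.0.16, DESeq2 1.42.0 size factors, the difference of mean log2(CPM + 1), mean CPM per set, thinning to 7.8 M counts, other minima, other ranks and set sizes, sets within reporter or title numbers and leaving out each cell. One more, all 7 high against the 3 low cells with title numbers 1 to 10, was added after seeing the data. The calculation was tested on simulated Poisson counts drawn from 1 shared profile with set changes in some genes. Those counts had no spread between cells, so that test checks the arithmetic only. Python 3.11.15, numpy 2.4.6, pandas 2.3.3, scipy 1.17.1, matplotlib 3.10.9 and R 4.3.3 were used.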

Additional observations from a re-analysis of the deposited data

Results flagged for a closer look

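In 13 of 68 pairs of a quantity and a set of 7 cells, 1 cell lay far from the others by the gap between it and its nearest neighbour. The limit used flags about 1 in 20 such groups when values are normally distributed. Many of these CPM sums are skewed, so that rate need not hold here, and the quantities share cells and genes. Among high cells, E14.5 negative cell 5 stood apart in fibroblast markers (52097 CPM), immediate early transcription factors (10544 CPM) and macrophage markers (25.5 CPM). E14.5 negative cell 4 stood apart in heat shock genes (17000 CPM), atrial markers (2705 CPM) and endothelial markers (180 CPM). E14.5 positive cell 3 stood apart in G2/M genes (22404 CPM).

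Among low cells, E14.5 positive cell 6, the low cell with the highest ranking sum, stood apart in feedback and effector genes (4666 CPM) and in load-responsive and fetal genes (33570 CPM). E14.5 positive cell 7 stood apart in sarcomere genes (55036 CPM) and glycolysis genes (4800 CPM). E14.5 negative cell 1 had the fewest genes with a read (5924), and its erythroid markers summed to 0.513 CPM.

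The P19 cells took no part in the comparison. Their ranking sum had a median of 210 CPM over 8 reporter positive cells (90.6 to 601 CPM) and of 164 CPM over 4 reporter negative cells (87.9 to 237 CPM). All of these lay within the range of the E14.5 low cells.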

How the results depend on the processing

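No paired analysis was possible because the cells come from unnamed animals, no test was made, and nothing in the labels says that a number in the titles pairs cells.

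The 2-fold counts and the medians depend on single cells, and the cause of each shift below was not tested. TMM factors moved the median of all genes to -0.28 and the difference of mean log2(CPM + 1) moved it to 0.19. Genes at least 2-fold higher numbered 1739, with 1525 to 2041 when each cell was left out, and genes at least 2-fold lower 1756, with 1595 to 2045. A minimum of 50 CPM gave 392 and 574, a minimum of 10 counts 4259 and 2883, and the difference of mean log2(CPM + 1) gave 1012 lower genes. The 3 highest against the 3 lowest cells with title numbers 1 to 10 gave 2724 higher genes, and all 7 high against 3 low cells with those numbers 3024.

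Genes without overlap numbered 3 higher and 0 lower, with 3 to 12 and 0 to 3 on leaving out each cell. TMM factors gave 3 lower and DESeq2 size factors 1, and a minimum of 50 CPM gave 1 higher. Ranking by mean log level gave 6 higher and 1 lower, and ranking by Fos, Egr1 and Atf3 gave 5 higher. With 5 against 5 cells there were 60 and 14, with 10 against 10 cells 0 higher, and with 3 against 3 cells within each reporter class, summed, 15 and 5. Smaller sets separate more genes: 544 and 277 within reporter positive cells, 356 and 264 within reporter negative cells, 667 and 222 within title numbers 1 to 10, 369 and 264 within numbers 21 to 30, and 76 and 48 with 7 against 3 cells.

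The immediate early median of 1.51 was 2.49 with 5 against 5 cells, 0.73 with 10 against 10 and 2.43 within reporter negative cells, and 1.12 to 2.01 on leaving out each cell.

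For named genes and lists with a log2 ratio of at least 1 in size, signs turned as follows. Signs of smaller ratios turned more often and are not listed, and Prox1, Tbx20, Myl7 and Kcnj3 are left out. By the difference of mean log2(CPM + 1), Id1 was -0.05, Id2 -0.07 and Id3 -0.46. Ranked by mean log level, Elk3 was -0.19, Myo1d -0.72, Id1 -0.10 and Rhob -0.07. With 5 against 5 cells Elk3 was -0.40. With 10 against 10 cells the sex-linked median was -1.11, Maml3 -0.22, Myc -0.65 and Ctgf -0.26. Within reporter positive cells the S phase median was 0.16, Pcna 0.00, Gins1 0.18, Postn -4.93, Cebpd -0.13, Ier3 -0.84, Id3 -1.16 and Gadd45g -0.33. Within reporter negative cells Elk3 was -0.13 and Psrc1 3.95. Within title numbers 1 to 10 Elk3 was -0.42, Edem1 0.66, Calr 0.31, Psrc1 0.30, Tpx2 0.96, Cxxc1 0.16, Myc -5.29, Id2 -1.18, Id3 -2.01, Zfp36l1 -0.29, Zfp36l2 4.76, Cyr61 -1.15 and Sgk1 -2.86. Within numbers 21 to 30 Elk3 was -6.49, Calr 0.34, Pcna 0.72, Mcm4 1.78, Nppb -5.37, Nppa -3.58, Maml3 -0.81, Kctd16 0.67 and Errfi1 -3.84. With 7 against 3 cells the sex-linked median was -0.21, Edem1 0.34, Calr 0.79, Tpx2 0.03, Nr4a2 -0.35, Zfp36l2 3.50 and Sgk1 -1.13. On leaving out each cell Cebpd ran from -0.09 to 2.75, Postn from -4.69 to 19.79, Id2 from -0.35 to 1.44, Id3 from -1.59 to 3.58 and Elk3 from -0.18 to 4.51.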
